A study of Mus musculus with 12 samples.

Results

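The genes described are 10 enzymes that make serine and glycine, carry 1-carbon units on folate, or make asparagine: Phgdh, Psat1, Psph, Shmt1, Shmt2, Mthfd1, Mthfd1l, Mthfd2, Aldh1l2 and Asns. They were taken by symbol from a table of 25239 genes, and all 10 were present. RNA came from fibroblasts of the back skin of wild-type male C57BL/6 mice, 8 weeks old, with no transgene or agent named in the labels. The other groups were wounded with a 4 mm full-thickness excision and harvested 16 h, 1.5 d or 3 d later, and NW is the unwounded group. Each group had 3 libraries from 3 mice, so the p values measure the spread between mice. Live cells with surface SCA1 and without CD45 or CD31 were sorted after liberase digestion, and a library stands for the sorted cells of a whole sample, not for 1 fibroblast subset.

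Serine is made from a glycolytic intermediate by 3 enzymes in turn, PHGDH, PSAT1 and PSPH. Serine hydroxymethyltransferases then split it into glycine and a carbon unit on folate. SHMT2, MTHFD2, MTHFD1L and ALDH1L2 work in mitochondria, where they make formate or carbon dioxide from that unit, and SHMT1 and MTHFD1 work in the cytosol, where the unit serves purine, thymidylate and methionine synthesis. ASNS makes asparagine from aspartate and glutamine, and in mammalian cells its gene and several of the others are known targets of the stress-induced transcription factor ATF4. Activated fibroblasts are known for using serine-derived glycine in collagen.

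Of the 10 enzymes, 6 were higher and 1 was lower at 16 h than in NW, 5 were higher and 1 lower at 1.5 d, and 4 were higher and 1 lower at 3 d (adjusted p under 0.05 in the quasi-likelihood test of edgeR, with p values adjusted by Benjamini-Hochberg over 14901 genes). Of all genes tested, 24.7% were called at 16 h, 24.5% at 1.5 d and 21.1% at 3 d. Higher calls alone made up 13.5%, 13.7% and 12% of genes at those times, and lower calls 11.2%, 10.8% and 9.15%. All 10 enzymes passed the filter on low counts. The wound libraries did not overlap the NW libraries for 7 of the 10 at 16 h, 8 at 1.5 d and 6 at 3 d, beside 41.3%, 40.7% and 40.3% of all genes. The median log2 change over the 10 was 0.92 at 16 h, 0.79 at 1.5 d and 0.70 at 3 d, beside -0.04, 0.01 and 0.00 over all genes tested. Mthfd1l, Asns, Psat1 and Shmt2 were called higher at each of the 3 times. Mthfd1 was called higher at 16 h and 1.5 d, and Mthfd2 at 16 h. Phgdh was called lower at 16 h, and Shmt1 at 1.5 d and 3 d. Psph was called at none of these times, with adjusted p between 0.354 and 0.549, and Aldh1l2 differed between wound times.

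**Figure D1:**
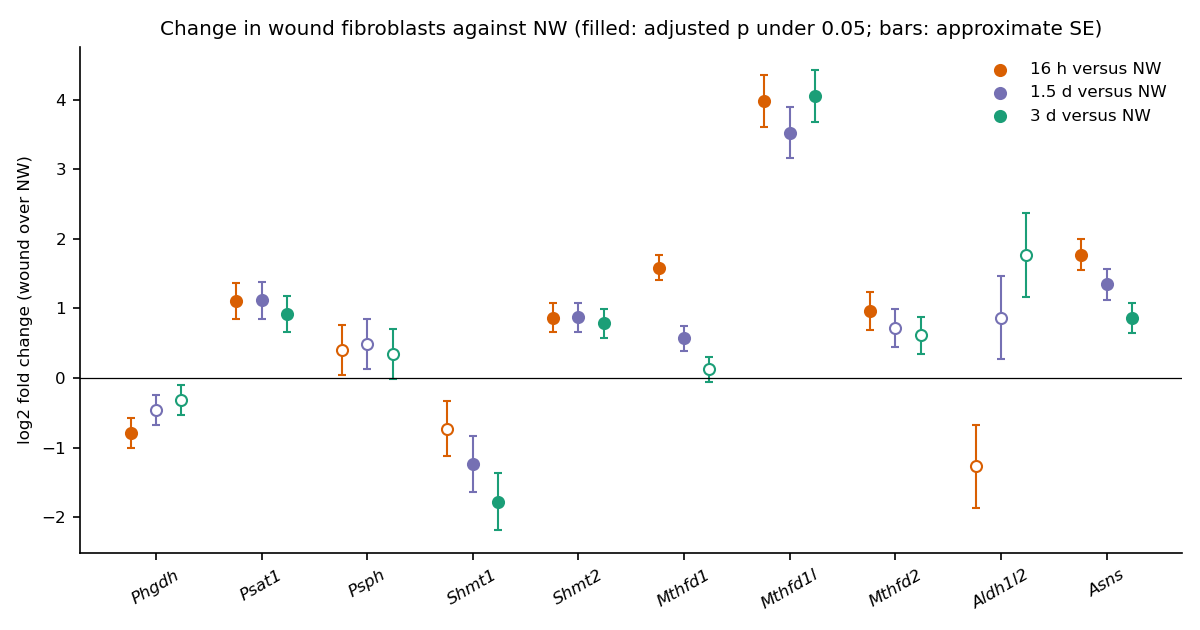
Log2 fold change of each enzyme against NW at 16 h, 1.5 d and 3 d, with approximate standard errors from 3 libraries a group. Filled points have an adjusted p under 0.05 (edgeR quasi-likelihood test). Mthfd1l lies between 3.53 and 4.05. Phgdh and Shmt1 lie below 0 at each time, and Aldh1l2 does so at 16 h only (-1.27, not called).

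The sort left transcripts of keratinocytes, the main cell of the epidermis, that differed between the groups. The summed level of 16 keratinocyte markers ranged over 8455 to 14573 CPM at 16 h, 4175 to 7296 CPM at 1.5 d and 961 to 12883 CPM at 3 d, against 21180 to 39310 CPM in NW (CPM are counts scaled to a common library total, after TMM normalisation). No wound library overlapped an NW library in that sum, and 6, 14 and 12 of the 16 markers were called lower at 16 h, 1.5 d and 3 d. Krt5 and Krt14, which define basal keratinocytes, had counts in every library. Markers of leukocytes, endothelium, pericytes, adipocytes, glia and muscle each summed to at most 107 CPM in any library. Pericyte markers summed to 14.7 to 36.3 CPM at 16 h, against 48.7 to 91.8 CPM in NW, with 3 of 7 called lower. Endothelial markers summed to 1.98 to 2.56 CPM at 16 h, against 7.63 to 11.1 CPM in NW, with 2 of 6 tested called lower. Neutrophil markers summed to 8.13 to 21.3 CPM at 16 h, against 0 to 0.572 CPM in NW. Adipocyte markers summed to at most 0.434 CPM at 16 h, against 9.73 to 12.3 CPM in NW, and Schwann cell and melanocyte markers to 14.7 to 21.99 CPM, against 51.2 to 71.6 CPM. Of 12 macrophage and monocyte markers, 5 were called higher and 1 lower at 16 h, with sums of 43.9 to 79.9 CPM, against 40.8 to 107 CPM in NW. Ly6a, which encodes the sorted antigen SCA1, averaged between 1053 and 2020 CPM. The 10 fibroblast markers took 6.59% ± 3.17 of counts at 16 h, 9.4% ± 1.46 at 1.5 d and 16.8% ± 4.16 at 3 d, against 14.2% ± 4.72 in NW (SD, n = 3), with 1 called higher and 4 lower at 16 h. The enzymes were also fitted with the keratinocyte marker sum as a covariate. As that sum did not overlap between NW and wound libraries, the fit cannot tell it apart from wounding. The part of the other markers in the results was not tested. Libraries held 26389453 to 43493475 counted fragments. In bulk samples like these, fewer cells of a type and less RNA per cell cannot be told apart.

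Levels per kb of exon allow the enzymes to be ranked within a group. In NW, Phgdh had the highest level per kb, 40.2 ± 7.57 CPM per kb (SD, n = 3), overlapping Shmt2 with 39.1 ± 3.87, and Mthfd1l the lowest, 0.732 ± 0.420. At 16 h Asns led with 91.1 ± 2.35 CPM per kb, followed by Shmt2 with 71.4 ± 6.98, and Aldh1l2 was lowest with 2.87 ± 1.61. At 1.5 d Shmt2 had 71.8 ± 17.6 CPM per kb and Asns 67.8 (range 58.2 to 79.8), and their libraries overlapped. At 3 d Shmt2 led with 67.6 ± 6.07 CPM per kb without overlapping Asns, which had 48.5 ± 10.9, and Shmt1 was lowest with 4.89 ± 2.77. Of the 9 pairs of neighbours in the order, the libraries overlapped for 7 in NW, for 4 in 16 h wounds, for 6 in 1.5 d wounds and for 7 in 3 d wounds, so that much of the order between neighbours lies within the spread of the mice. Phgdh moved from the first place in NW to the sixth at 16 h, the fifth at 1.5 d and the fourth at 3 d.

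**Figure D2:**
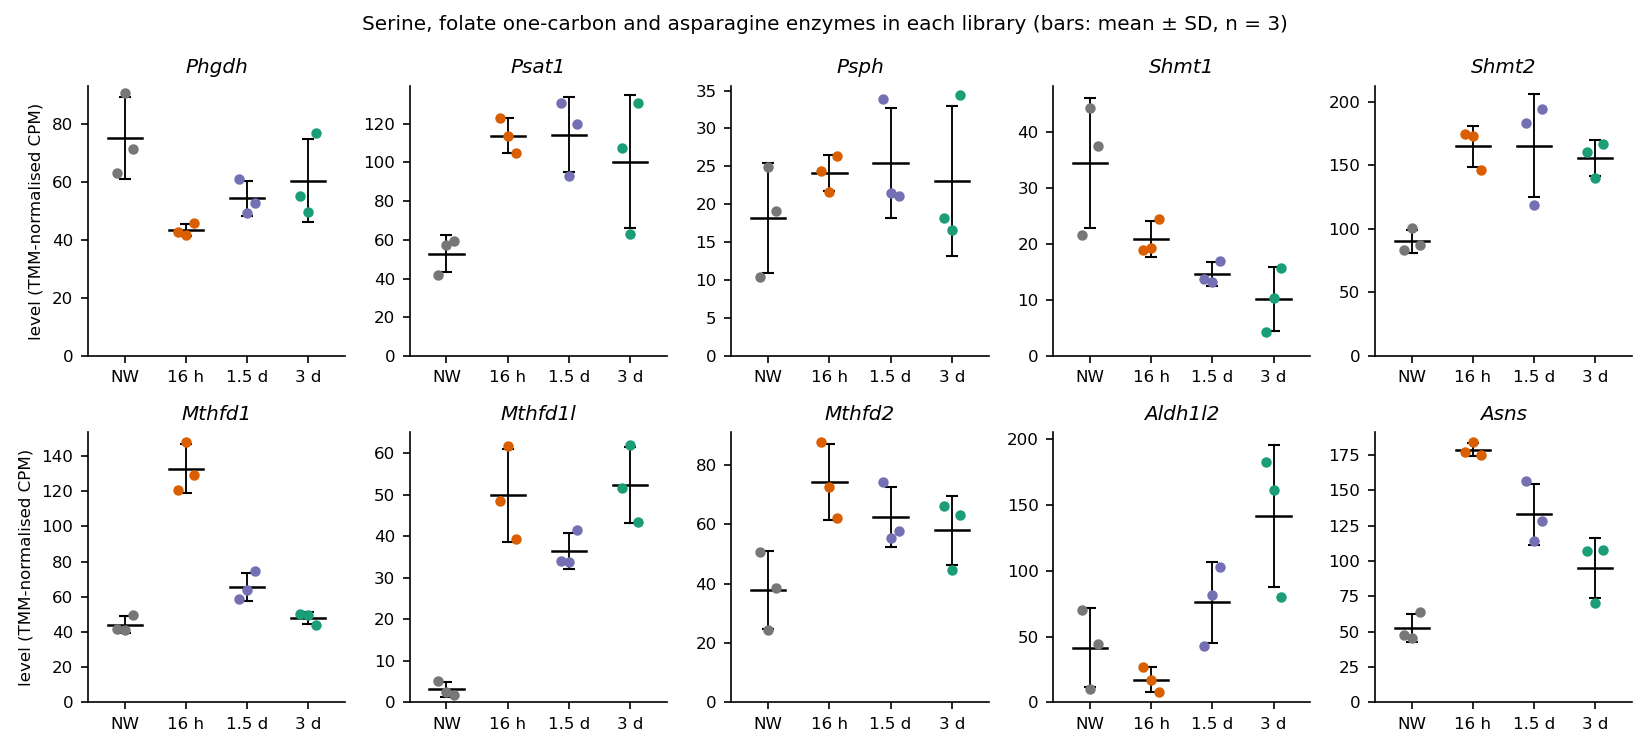
TMM-normalised CPM of each enzyme in every library, by group in order of time, with the mean and SD of 3 libraries. Mthfd1l lies between 1.76 and 5.23 CPM in NW and above 33 CPM in all 9 wound libraries, while Mthfd1 peaks at 16 h and Aldh1l2 is highest at 3 d.

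The bases before the start site are shown for the 4 genes called higher at each wound time, because Asns carries elements through which its transcription is known to answer amino acid supply. The windows come from RefSeq (GRCm38.p6, the build mm10) and run from 150 bases before the annotated start to 10 bases after it. They are written 5′ to 3′ on the strand of the gene, with matches to the motifs searched in capitals.
Asns, chr6:7693200-7693359, minus strand: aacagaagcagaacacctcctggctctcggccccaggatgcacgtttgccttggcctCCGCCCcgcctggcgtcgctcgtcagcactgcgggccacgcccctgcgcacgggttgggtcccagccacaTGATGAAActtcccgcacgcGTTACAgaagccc
Mthfd1l, chr10:3972925-3973084, plus strand: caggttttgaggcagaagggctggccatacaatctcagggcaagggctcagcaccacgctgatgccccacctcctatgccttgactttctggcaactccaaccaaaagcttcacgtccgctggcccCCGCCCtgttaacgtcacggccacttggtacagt
Psat1, chr19:15925050-15925209, minus strand: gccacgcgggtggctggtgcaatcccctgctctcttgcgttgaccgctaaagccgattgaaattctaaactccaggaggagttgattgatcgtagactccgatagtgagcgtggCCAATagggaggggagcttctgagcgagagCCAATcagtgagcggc
Shmt2, chr10:127522435-127522594, minus strand: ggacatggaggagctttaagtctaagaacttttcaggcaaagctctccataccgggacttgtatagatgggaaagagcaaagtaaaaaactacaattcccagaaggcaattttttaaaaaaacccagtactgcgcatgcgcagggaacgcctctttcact
The motifs were TGATGNAA (the C/EBP-ATF response element, bound by ATF4), GTTACA (known as the second nutrient-sensing element of the Asns promoter), CACGTG (E-box), TGACGTCA (cAMP response element), CCAAT and GGGCGG (GC box), each sought on both strands from 250 bases before the start to 50 after it. Windows were available for 9 of the 10 genes, not for Aldh1l2. Among these 9, matches of different motifs overlapped in 0 cases. TGATGNAA was found in 1 of 9 windows, that of Asns, where TGATGAAA begins 23 bases before the start, and in 3.97% of 32817 RefSeq windows. GTTACA was likewise found in the Asns window alone among the 9 and in 8.25% of all windows. CCAAT occurred in 6 of 9 windows and 37.4% of all, GGGCGG in 5 of 9 and 35.6% of all, and CACGTG and TGACGTCA in 0 of 9, beside 7.15% and 1.79% of all. Psat1 had CCAAT boxes and Mthfd1l a GC box, whereas the window printed for Shmt2 held none of the 6 motifs. The median GC content was 59.0% in the 9 windows and 52.7% in all windows. A match describes the letters only.

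Phgdh, which opens the serine pathway, and Psat1, the enzyme after it, went in opposite directions (Phgdh, chromosome 3, 98313171 to 98339969, minus strand; Psat1, chromosome 19, 15905123 to 15925059, minus strand; all coordinates mm10). Phgdh had 63.2, 90.8 and 71.4 CPM in NW, 43.0, 41.8 and 46.0 at 16 h, 61.2, 49.5 and 52.8 at 1.5 d, and 55.1, 49.7 and 76.9 at 3 d. Every library of 16 h lay below every NW library, and so did those of 1.5 d, whereas 3 d overlapped NW. The log2 change was -0.79 (SE 0.217) at 16 h, 1.73-fold lower, with an edgeR adjusted p of 0.0185, and -0.46 and -0.31 at 1.5 d and 3 d with adjusted p of 0.138 and 0.34. Psat1, the aminotransferase, had 41.9, 57.2 and 59.2 CPM in NW, 122.9, 113.7 and 104.9 at 16 h, 130.5, 92.9 and 119.8 at 1.5 d, and 107, 62.9 and 131 at 3 d. All 9 wound libraries lay above the NW libraries, the nearest being replicate 2 at 3 d. Its log2 change was 1.11 (SE 0.26) at 16 h, 1.12 at 1.5 d and 0.93 at 3 d, with edgeR adjusted p of 0.00814, 0.0077 and 0.0225. At 3 d the call was lost without NW replicate 1, 3 d replicate 1 or 3 d replicate 3, with total-count scaling (adjusted p = 0.0551), with only the 2 groups in the fit (0.0612) and with the keratinocyte marker sum as a covariate (0.224, at a log2 change of 0.977). Psph, the phosphatase that ends the pathway (chromosome 5, 129765558 to 129787253), ranged over 21.6 to 26.4 CPM at 16 h, 21.1 to 33.8 at 1.5 d and 16.6 to 34.4 at 3 d, against 10.5 to 24.97 in NW. Its groups overlapped throughout, and the largest log2 change against NW was 0.48 (SE 0.358), at 1.5 d. The call for Phgdh at 16 h was lost with the keratinocyte marker sum as a covariate (adjusted p = 0.108) and without NW replicate 2, 16 h replicate 1 or 16 h replicate 2, while that for Psat1 at 16 h held in all 21 alternatives tried.

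The pair of serine hydroxymethyltransferases diverged. Shmt2, the mitochondrial enzyme (chromosome 10, 127517123 to 127522444, minus strand), had 83.1, 100.2 and 87.1 CPM in NW, 175, 173 and 146 at 16 h, 183, 119 and 194 at 1.5 d, and 160.3, 140.1 and 167 at 3 d. All 9 wound libraries exceeded the 3 NW libraries, and the wound groups overlapped each other. The log2 changes were 0.87, 0.88 and 0.79 (SE 0.207 each), with edgeR adjusted p of 0.00897, 0.00838 and 0.0166. Without NW replicate 3 or 3 d replicate 1 the 3 d call was lost, and with the keratinocyte marker sum as a covariate the calls at 1.5 d and 3 d were lost (adjusted p of 0.153 and 0.267) at log2 changes of 0.83 and 0.74. Shmt2 shares 34 exon bases (1.48% of its exon length) with Ndufa4l2 on the opposite strand, and the library kit does not keep strand. Shmt1, the cytosolic enzyme (chromosome 11, 60788897 to 60811265, minus strand), had 21.7, 44.4 and 37.5 CPM in NW, 18.9, 19.2 and 24.6 at 16 h, 13.8, 13.2 and 17.04 at 1.5 d, and 4.27, 10.3 and 15.7 at 3 d. The 1.5 d and 3 d libraries lay below all NW libraries, while 16 h overlapped NW through NW replicate 1. Its log2 change was -0.72 (SE 0.395) at 16 h, -1.24 at 1.5 d and -1.77 (SE 0.406) at 3 d, 3.42-fold lower, with edgeR adjusted p of 0.201, 0.0382 and 0.00826. The 1.5 d call was lost in 10 of 21 alternatives, among them leaving out NW replicate 2 or 3, 16 h replicate 1 or 2, 3 d replicate 2 or any 1.5 d library. The library with the least Shmt1, 3 d replicate 1, also had the lowest keratinocyte marker sum of all 12, 961 CPM. Within 3 d the sums of 961, 8995 and 12883 CPM ranked as Shmt1 did. So did those of 21180, 39310 and 32784 CPM within NW. Within 16 h and within 1.5 d Shmt1 did not rank as the keratinocyte marker sum did. With that sum as a covariate the log2 change of Shmt1 became -0.10 at 1.5 d and -0.70 at 3 d, with adjusted p of 0.934 and 0.487. No NW library had a marker sum as low as any wound library, so in that fit wounding and keratinocyte content cannot be told apart.

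Within each library the ratio of Shmt2 to Shmt1, both per kb of exon, is free of scaling between libraries. It is not free of differences in cell content, and the part of the keratinocyte markers in it was not tested. The log2 ratio averaged 1.28 ± 0.43 in NW libraries, 2.82 ± 0.35 in 16 h wounds, 3.31 ± 0.28 in 1.5 d wounds and 3.97 ± 0.96 in 3 d wounds (SD, n = 3), corresponding to 2.43, 7.08, 9.93 and 15.7 Shmt2 per Shmt1. The single ratios ran from 5.33 to 33.5 in the 9 wound libraries, against 2.02 to 3.43 in NW, without overlap. The ratio of 33.5 was that of 3 d replicate 1, beside 12.2 and 9.51 in the other 3 d libraries. The libraries of 16 h and 1.5 d overlapped, as did those of 1.5 d and 3 d. An exact permutation test of the F statistic over the 4 groups gave p = 0.00117, and 0.00234 after adjustment over the 4 enzyme ratios tested.

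Mthfd1l, the mitochondrial formyltetrahydrofolate synthetase that releases formate (chromosome 10, 3973075 to 4167081, plus strand), had the largest change of the 10 enzymes. It had 137, 77 and 53 counts in NW, or 5.23, 2.53 and 1.76 CPM. The level was 48.5, 61.7 and 39.4 CPM at 16 h, 34.1, 33.8 and 41.4 at 1.5 d, and 51.6, 62.0 and 43.5 at 3 d. The lowest wound library stood at 33.8 CPM and the highest NW library at 5.23. The fold changes were 15.8 at 16 h, 11.5 at 1.5 d and 16.6 at 3 d, as log2 3.98 (SE 0.376), 3.53 (SE 0.369) and 4.05 (SE 0.377), with edgeR adjusted p of 2.75e-05, 5.45e-05 and 2.89e-05. It passed the threshold at all 3 times in all 21 alternatives, with log2 changes between 3.24 and 4.63. Between wound times its largest log2 difference was 0.52 (3 d over 1.5 d, adjusted p = 0.802).

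Mthfd1, the cytosolic enzyme that carries the same synthetase activity together with a dehydrogenase and a cyclohydrolase (chromosome 12, 76255232 to 76319820, plus strand), was high for a shorter time. It had 41.8, 41.0 and 49.6 CPM in NW, 121, 148 and 129 at 16 h, 58.6, 63.8 and 74.6 at 1.5 d, and 50.4, 49.6 and 44.2 at 3 d. The 16 h libraries stood above all others, 1.5 d stood between 16 h and both remaining groups, and 3 d overlapped NW. The log2 change against NW was 1.59 (SE 0.185) at 16 h, 3.01-fold, then 0.57 (SE 0.181) at 1.5 d and 0.12 (SE 0.181) at 3 d, with edgeR adjusted p of 0.000105, 0.0346 and 0.679. The call at 1.5 d was lost in 9 of 21 alternatives, among them leaving out NW replicate 1, NW replicate 2, 1.5 d replicate 2 or 1.5 d replicate 3. Mthfd1 was 2.02-fold lower at 1.5 d than at 16 h and 2.76-fold lower at 3 d than at 16 h, with edgeR adjusted p of 0.0107 and 0.000458. In the edgeR fit over all groups it was the 1 enzyme of the 10 called between 1.5 d and 16 h, where 2.86% of all genes were called, 2.39% higher and 0.47% lower, and without 16 h replicate 2 its adjusted p there was 0.064. DESeq2 and a fit of those 2 groups also called Aldh1l2 in this comparison (adjusted p of 0.00464 and 0.0395).

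The log2 ratio of Mthfd1l to Mthfd1 per kb averaged -4.32 ± 0.91 in NW libraries, -1.81 ± 0.25 in 16 h wounds, -1.23 ± 0.066 in 1.5 d wounds and -0.27 ± 0.18 in 3 d wounds (SD, n = 3). In linear terms there was 0.0501 Mthfd1l per Mthfd1 in NW and 0.285, 0.426 and 0.828 at the 3 wound times. No 2 groups overlapped. The exact permutation p over the 4 groups was 6.49e-05, the smallest that 369600 arrangements allow, and 0.00026 after adjustment over 4 ratios.

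**Figure D3:**
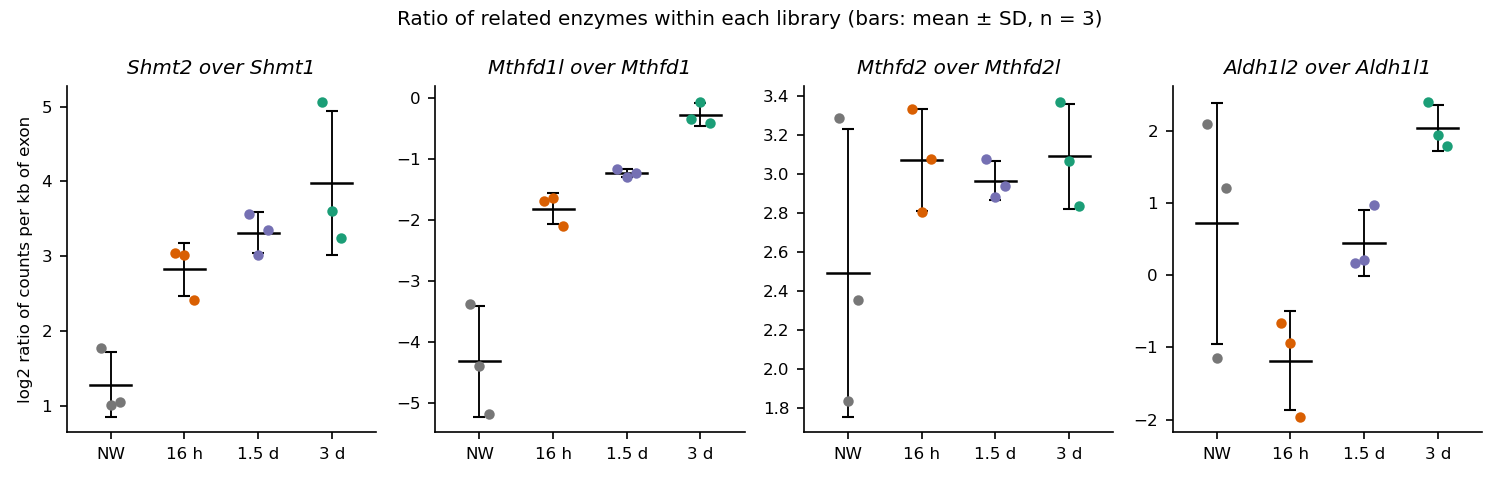
Log2 ratio of related enzymes per kb of exon within each library, by group in order of time, with mean and SD of 3 libraries. Shmt2 over Shmt1 and Mthfd1l over Mthfd1 lie above NW in all 9 wound libraries, Mthfd2 over Mthfd2l overlaps between groups, and Aldh1l2 over Aldh1l1 spans -1.14 to 2.09 within NW.

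Mthfd2, the mitochondrial dehydrogenase and cyclohydrolase known for its high level in embryos and tumours (chromosome 6, 83305704 to 83317604, minus strand), was modestly higher early after wounding. It had 50.7, 24.5 and 38.5 CPM in NW, 87.8, 72.5 and 62.3 at 16 h, 74.2, 55.5 and 57.7 at 1.5 d, and 66.1, 44.7 and 63.1 at 3 d. The 16 h and 1.5 d libraries lay above NW, and 3 d overlapped NW through replicate 2. The log2 change was 0.97 (SE 0.272) at 16 h with an edgeR adjusted p of 0.0203, and 0.72 and 0.61 at 1.5 d and 3 d with adjusted p of 0.0694 and 0.128. Without NW replicate 2, NW replicate 3, 16 h replicate 1 or 16 h replicate 2, or with the keratinocyte covariate, the 16 h call was lost, and without NW replicate 1 Mthfd2 was also called at 1.5 d and 3 d. Its close mitochondrial relative Mthfd2l averaged 9.55 CPM at 16 h, 8.62 at 1.5 d and 7.42 at 3 d, against 7.07 in NW, and was not called (adjusted p between 0.344 and 0.909). The log2 ratio of Mthfd2 to Mthfd2l per kb averaged 2.49 in NW libraries, 3.07 in 16 h wounds, 2.97 in 1.5 d wounds and 3.09 in 3 d wounds, with an exact permutation p of 0.281.

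Aldh1l2, the mitochondrial enzyme that oxidises formyltetrahydrofolate to carbon dioxide and makes NADPH (chromosome 10, 83487447 to 83534140, minus strand), ran on another time course. It had 70.0, 10.4 and 44.3 CPM in NW, 27.2, 16.8 and 7.85 at 16 h, 43.0, 81.6 and 103 at 1.5 d, and 183, 162 and 80.2 at 3 d. The NW libraries overlapped those of 16 h and 1.5 d, and the 3 d libraries lay above those of both NW and 16 h. At 3 d Aldh1l2 was 8.18-fold higher than at 16 h (log2 3.03, SE 0.634, edgeR adjusted p = 0.00975), and this call held in all 21 alternatives. None of these alternatives included the fibroblast marker share as a covariate. That share was 10.2%, 5.26% and 4.3% in the 16 h libraries and 17.7%, 20.35% and 12.2% in those of 3 d, without overlap. The part of that share in the difference was not tested. The log2 change of Aldh1l2 against NW was -1.27 (SE 0.598) at 16 h, 0.87 (SE 0.591) at 1.5 d and 1.77 (SE 0.603) at 3 d, with adjusted p of 0.141, 0.312 and 0.0532. DESeq2 and limma-voom called it at 3 d against NW, with adjusted p of 0.0106 and 0.0181, and edgeR did so without NW replicate 1, 16 h replicate 3 or 3 d replicate 3. Those were the only 5 of 21 alternatives to call it, and the keratinocyte covariate was not among them. Over the 21 the log2 change at 3 d ran from 1.02 to 2.4 and the adjusted p reached 0.635. Without NW replicate 2 Aldh1l2 was called lower at 16 h (adjusted p = 0.0312). In NW the library with least Aldh1l2, replicate 2, also had the lowest fibroblast marker share, 8.85% against 17.7% and 16.1%. Its keratinocyte marker sum was the highest, 39310 CPM against 21180 and 32784, and the part of either in the value was not tested. Aldh1l1, the cytosolic counterpart, averaged 18.4 CPM at 16 h, 28.01 at 1.5 d and 17.3 at 3 d, against 10.2 in NW, with an adjusted p of 0.00453 at 1.5 d. The log2 ratio of Aldh1l2 to Aldh1l1 per kb averaged 0.72 ± 1.67 in NW libraries, -1.19 ± 0.68 in 16 h wounds, 0.45 ± 0.46 in 1.5 d wounds and 2.04 ± 0.32 in 3 d wounds, and the exact permutation test gave an adjusted p of 0.0319, which lay above 0.05 in 8 of 12 fits that left out a library, up to 0.0986 without 16 h replicate 3.

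Asns (chromosome 6, 7675165 to 7693209, minus strand) had the narrowest spread of the 10 enzymes at 16 h relative to its level. It had 47.6, 45.7 and 63.6 CPM in NW, 177, 184 and 175 at 16 h, 156, 114 and 128 at 1.5 d, and 107, 70.3 and 108 at 3 d. The 4 groups did not overlap, with 16 h highest and NW lowest. The log2 change against NW was 1.77 (SE 0.223), 1.35 (SE 0.22) and 0.86 (SE 0.218), as folds 3.41, 2.54 and 1.82, with edgeR adjusted p of 0.000177, 0.00106 and 0.014. The calls at 16 h and 1.5 d held in all 21 alternatives, and that at 3 d was lost without NW replicate 2, without 3 d replicate 1 and with the keratinocyte covariate. Asns was 1.88-fold lower at 3 d than at 16 h (adjusted p = 0.0196), a call lost without 16 h replicate 1, 16 h replicate 2 or 3 d replicate 2.

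Between wound times, 3 of the 10 enzymes were called between 3 d and 16 h, where 9.53% of all genes were. Aldh1l2 was higher at 3 d, beside 5.86% of all genes, and Mthfd1 and Asns were lower, beside 3.67%. Between 3 d and 1.5 d the edgeR test called 0 of 10, beside 0.141% of all genes (0.101% higher and 0.0403% lower). At an unadjusted p under 0.05 there were 2, Mthfd1 and Asns, and DESeq2 and limma-voom also called 0. Across the 4 groups, 7 of 10 differed by the edgeR F test, beside 29.7% of all genes, the remainder being Phgdh, Psph and Mthfd2 with adjusted p of 0.0636, 0.687 and 0.0711.

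The neighbouring steps of the pathway were read from lists of other folate, serine and glycine, purine, methionine, and aspartate and asparagine genes. The difference in keratinocyte markers stands beside each of these comparisons with NW, and its part in them was not tested. In the folate list 2 of 14 tested genes were higher and 2 lower at 16 h than in NW, 2 and 1 at 1.5 d, and 1 and 1 at 3 d. Those calls were 28.6%, 21.4% and 14.3% of the list, beside 24.7%, 24.5% and 21.1% of all genes tested. The median log2 change of the list was 0.50, 0.44 and 0.39 at those times. Slc19a1, the reduced folate carrier of the plasma membrane, had 60.5, 74.8 and 63.0 CPM at 16 h, against a range of 10.7 to 18.4 in NW. The 16 h and NW libraries did not overlap, and its log2 change against NW was 2.24 at 16 h, 1.53 at 1.5 d and 0.96 at 3 d (edgeR adjusted p of 0.00038, 0.00354 and 0.0403). Ggh, the lysosomal hydrolase that trims folate polyglutamates, averaged 27.8 CPM at 16 h, 31.6 at 1.5 d and 43.7 at 3 d, against 87.7 in NW, and was called lower each time (adjusted p of 0.00142, 0.00281 and 0.0232). Slc46a1, the proton-coupled folate transporter, was not called against NW (adjusted p between 0.0711 and 0.552). Tyms, the thymidylate synthase, averaged 20.2 CPM at 16 h, 44.8 at 1.5 d and 41.1 at 3 d, against 23.6 in NW, and was not called against NW at any of these times (adjusted p between 0.0535 and 0.65). The edgeR F test over the 4 groups did call it (adjusted p = 0.0302), and its 1.5 d libraries overlapped neither NW nor 16 h.

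In the serine and glycine list 4 of 13 tested genes were higher and 1 lower at 16 h, 3 and 0 at 1.5 d, and 2 and 1 at 3 d. The calls were 38.5% of the list at 16 h and 23.1% at both later times, beside 24.7%, 24.5% and 21.1% of all genes. Sfxn1, a carrier of serine into mitochondria, averaged 129 CPM at 16 h, 162 at 1.5 d and 125 at 3 d, against 83.2 in NW, with log2 changes of 0.63, 0.96 and 0.59 (edgeR adjusted p of 0.0141, 0.00142 and 0.0231). Gldc, the decarboxylase of the glycine cleavage system, averaged 25.4, 35.7 and 18.7 CPM at the same times, against 7.99 in NW, and was called each time (adjusted p of 0.00728, 0.00181 and 0.0357). Slc1a5, a transporter of neutral amino acids, was called higher at 16 h, with 397 against 209 CPM (adjusted p = 0.0128), and at 1.5 d and 3 d its log2 change was 0.62 and 0.12. Sfxn3, a relative of Sfxn1, was lower at 3 d, with 74.0 against 110 CPM in NW (adjusted p = 0.0444).

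Purine synthesis draws formate-derived carbon, and of its 13 genes 8 were higher at 16 h, 7 at 1.5 d and 2 at 3 d than in NW, with 0 lower at each time. That was 61.5%, 53.8% and 15.4% of the list, beside 13.5%, 13.7% and 12% of all genes called higher. The median log2 change was 0.88, 0.77 and 0.22. Gart, which uses formyltetrahydrofolate, averaged 112 CPM at 16 h, 96.0 at 1.5 d and 72.9 at 3 d, against 38.5 in NW (edgeR adjusted p of 0.000568, 0.00157 and 0.013). Ppat, which commits the pathway, averaged 28.8, 22.1 and 16.7 CPM, against 8.14 in NW (adjusted p of 0.000546, 0.0023 and 0.0159). Pfas and Adsl, at later steps, were called higher at 16 h and 1.5 d, with 16 h levels of 16.4 and 91.7 CPM against 4.00 and 39.9 in NW, and not at 3 d (adjusted p of 0.381 and 0.596).

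**Figure D4:**
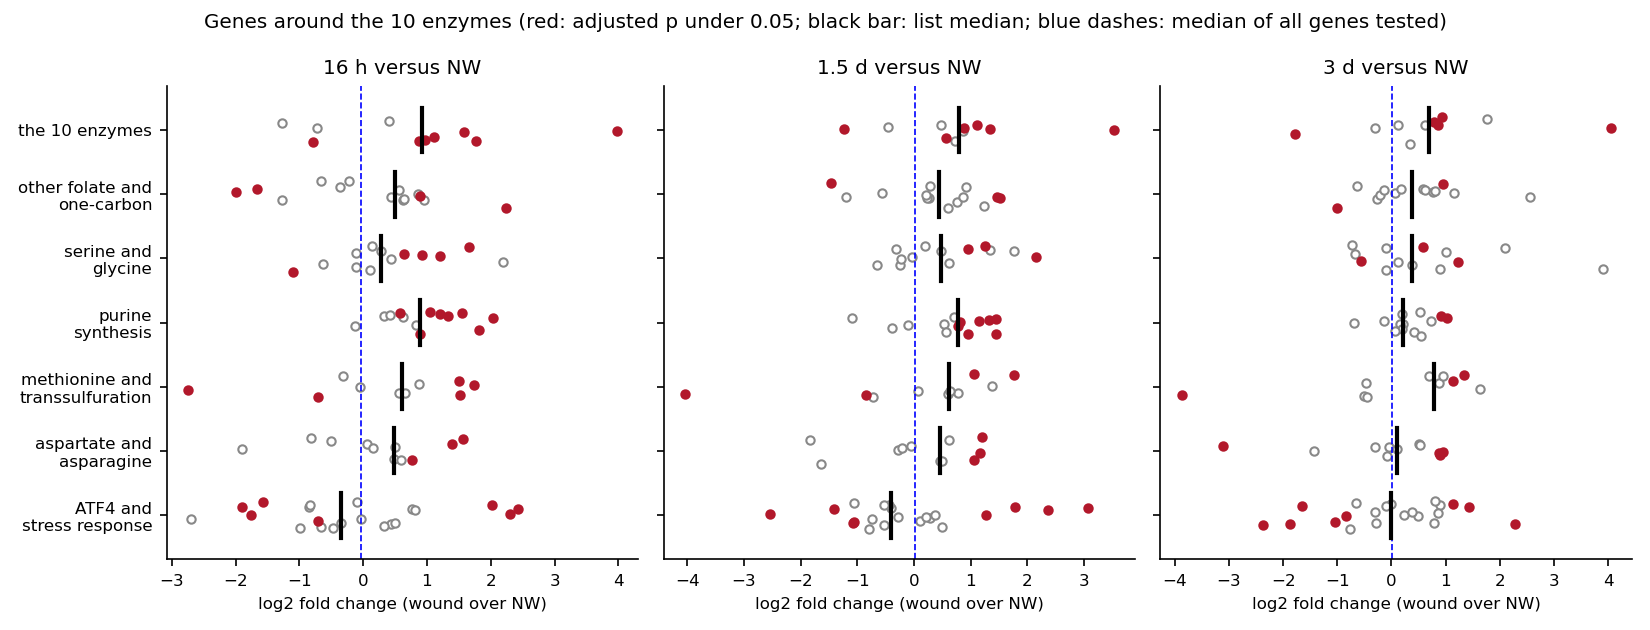
Log2 fold change against NW of the 10 enzymes and of 6 lists of related genes at 16 h, 1.5 d and 3 d, each point 1 gene. Red points have an adjusted p under 0.05, black bars are list medians and the dashed line is the median of all genes tested; the purine list has 8, 7 and 2 genes called, each of them higher.

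In the methionine and transsulfuration list 3 of 10 tested genes were higher and 2 lower at 16 h, 2 and 2 at 1.5 d, and 2 and 1 at 3 d. The list had 50%, 40% and 30% of its genes called, beside 24.7%, 24.5% and 21.1% of all genes. Cbs, which joins serine to homocysteine, had 10.1, 6.54 and 9.96 CPM at 16 h, 3.17, 4.65 and 2.99 at 1.5 d and 0.977, 5.6 and 5.56 at 3 d, against 43.1, 61.8 and 72.97 in NW. All wound libraries lay below all NW libraries, with log2 changes of -2.74, -4.04 and -3.87 (edgeR adjusted p of 0.00196, 0.000277 and 0.000366). As with Shmt1, 3 d replicate 1 held the least. Ahcy, which hydrolyses adenosylhomocysteine, and Mtap, which salvages methylthioadenosine, were called higher at all 3 times, Ahcy with log2 changes of 1.51, 1.77 and 1.34 and Mtap with 1.51, 1.06 and 1.14. Mtrr, which reactivates methionine synthase, was higher at 16 h, with 30.2 against 9.06 CPM (adjusted p = 0.00456).

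In the aspartate and asparagine list 3 of 11 tested genes were higher and 0 lower at 16 h and at 1.5 d, and 3 and 1 at 3 d. Its calls made up 27.3%, 27.3% and 36.4%, beside 24.7%, 24.5% and 21.1% of all genes. Nars, which charges asparagine on its transfer RNA, averaged 422 CPM at 16 h, 325 at 1.5 d and 265 at 3 d, against 142 in NW (edgeR adjusted p of 7.88e-05, 0.000506 and 0.00295). Got2, the mitochondrial transaminase that forms aspartate, averaged 212, 181 and 156 CPM, against 80.8 in NW (adjusted p of 0.000159, 0.000567 and 0.00211). Asl, the argininosuccinate lyase, was called higher at 1.5 d and 3 d, with log2 changes of 1.06 and 0.87. Aspg, an asparaginase, was lower at 3 d, with 1.73 against 15.05 CPM in NW (adjusted p = 0.0106).

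The ATF4 pathway and integrated stress response list held calls in both directions. It did not include Asns, Psat1, Shmt2 or Mthfd2, which were called higher at 16 h, so its medians describe the other genes only. Of 21 tested, 3 were higher and 4 lower at 16 h, 4 and 4 at 1.5 d, and 3 and 5 at 3 d, with list medians of -0.34, -0.41 and -0.01 on the log2 scale. The share called was 33.3%, 38.1% and 38.1%, beside 24.7%, 24.5% and 21.1% of all genes. Atf4 itself averaged 308 CPM at 16 h, 248 at 1.5 d and 209.8 at 3 d, against 329 in NW, and its log2 changes of -0.10, -0.41 and -0.65 were not called (edgeR adjusted p of 0.822, 0.268 and 0.0895). ATF4 is regulated in large part through translation, which RNA levels do not measure. Slc7a5, a transporter of large neutral amino acids, averaged 186, 130 and 101 CPM at the 3 wound times, against 37.5 in NW, and was called higher each time (adjusted p of 9.08e-05, 0.000473 and 0.00198). Ddit4, an inhibitor of mTORC1, was called higher each time, with log2 changes of 2.01, 2.36 and 2.29. Atf3, a stress-induced transcription factor, averaged 558 CPM at 16 h, 355 at 1.5 d and 400.1 at 3 d, against 2074 in NW, and was called lower each time (adjusted p of 0.00636, 0.00134 and 0.00216). Nupr1, a stress-induced nuclear protein, was also called lower, with log2 changes of -1.76, -1.42 and -1.66.

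The genes whose profile over the 12 libraries lay nearest to each enzyme were found by the root mean square difference of centred log2 CPM, among 8607 other genes of at least 10 CPM. Asns lay nearest to Stip1, a co-chaperone, at 0.109, and to Pes1, a nucleolar protein of ribosome assembly, at 0.138. Phgdh lay nearest to Adipor1, an adiponectin receptor, at 0.115, and to Tmem192 at 0.146. Mthfd2 lay nearest to Pias2 at 0.199 and to Tars, a transfer RNA synthetase, at 0.219. Mthfd1l lay nearest to Spire1, an actin nucleator, at 0.383, and to Gdnf, a neurotrophic factor, at 0.417. Aldh1l2 had the most distant neighbours, Mrc2, a collagen receptor, at 0.546 and Igsf10 at 0.558. For the others the nearest were Trim27 for Psat1 at 0.17, Nsmce1 for Psph at 0.188, Pim3 for Shmt1 at 0.271, Mfsd10 for Shmt2 at 0.138 and Heatr3 for Mthfd1 at 0.144, and the second were Nudt5 at 0.2, Nudt21 at 0.188, Tuba4a at 0.288, Rbbp7 at 0.144 and Cpne2 at 0.198. None of these 20 neighbours was itself one of the enzymes. Among the enzymes the nearest pair was Psat1 and Shmt2, at 0.234. The points of such a profile share libraries and scaling, so the distances are descriptions.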

How the data were processed

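Counts of fragments per gene symbol were deposited by the authors without normalization. Per the file headers they were made with featureCounts 2.0.0 from paired reads over exons of an mm10 refGene annotation, with no strand or multi-mapping option, so fragments aligned to several places were not counted. STAR, SAMtools, Subread and Partek are named in the submitters' processing notes without versions. Per the labels' protocols RNA was amplified with a SMART-Seq v4 kit. All 12 columns were matched to libraries by name.

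Genes were filtered with filterByExpr (14901 of 25239 kept), scaled by TMM and fitted by group over 12 libraries with edgeR 4.0.16 (robust quasi-likelihood) in R 4.3.3. P values were Benjamini-Hochberg adjusted over all genes, and a gene was called under 0.05. Standard errors were back-calculated from F and are approximate. Ratios of enzymes used counts plus 0.5 per kb and an exact permutation test over 4 groups of 3. The procedure was tested on simulated data. Library totals of 26389453 to 43493475 set 3 counts at about 0.1 CPM.

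The enzymes, the lists and the tests were chosen with earlier results of these data known. Genes named from a list are the up to 4 with the smallest F test p, with Atf4, Mthfd2l, Aldh1l1 and Tyms named for their role (1 further gene is not reported here), and each enzyme has its 2 nearest profiles. Alternatives were DESeq2 1.42.0, limma-voom (limma 3.58.1), RLE and total-count scaling, other filters, fits of 2 groups, a replicate block, a keratinocyte covariate, and leaving out each library.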

Additional observations from a re-analysis of the deposited data

How the results depend on the processing

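Over 21 alternatives, Psat1, Shmt2, Mthfd1, Mthfd1l and Asns kept their call at 16 h against NW, Mthfd1l and Asns at 1.5 d, Mthfd1l at 3 d, and Mthfd1 and Aldh1l2 between 3 d and 16 h. The number of enzymes called between 1.5 d and 16 h was 1, and 2 with DESeq2 or with only the 2 groups compared, Aldh1l2 being added; 2.86% of all genes were called, and 8% and 2.66% in those fits. The keratinocyte covariate left 2 calls at 1.5 d against NW (Mthfd1l and Asns), 1 at 3 d (Mthfd1l) and 3 among the 4 groups (Mthfd1, Mthfd1l and Asns). Of all genes, 4.28%, 3.19% and 12.4% were called in that fit, against 24.5%, 21.1% and 29.7% in the main fit. No NW library had a marker sum as low as any wound library, so wounding and keratinocyte content cannot be told apart there. In that fit the log2 changes of lost calls were 1.16 for Psat1, 0.833 for Shmt2, 0.454 for Mthfd1 and -0.101 for Shmt1 at 1.5 d, and 0.977 for Psat1, 0.742 for Shmt2, 0.732 for Asns and -0.7 for Shmt1 at 3 d. Leaving out 1 library gave 5 to 7 calls at 16 h against NW, 4 to 6 at 1.5 d, 2 to 6 at 3 d, 0 to 2 for 1.5 d against 16 h, 2 to 4 for 3 d against 16 h, 0 for 3 d against 1.5 d and 5 to 8 among the 4 groups. The 2 calls at 3 d, Mthfd1l and Shmt1, came without 3 d replicate 1, and the 0 for 1.5 d against 16 h without 16 h replicate 2; the 2 there came without NW replicate 2, with Aldh1l2. The cause was not tested.

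The correlations of deviations gave no sign that replicate numbers pair the samples, though they cannot exclude it. Over 18 same-numbered pairs they ran from -0.172 to 0.168, and 2 exceeded 0.1. Differently numbered pairs ran from -0.202 to 0.196. A replicate block left the counts at 7, 6 and 5 against NW, with Mthfd1 lost and Mthfd2 gained at 1.5 d, and gave 8 among the 4 groups. The log2 ratio of Aldh1l2 to Aldh1l1, wounds minus NW, was -0.28, and leave-one-out values ran from -1.21 to 0.405. The permutation p of a ratio tests any difference over the 4 groups, not this difference between wounds and NW. For Aldh1l2 to Aldh1l1 the adjusted permutation p was 0.0556 within the replicate block and 0.00143 to 0.0986 in the leave-one-out fits. The wounds minus NW value of Mthfd2 to Mthfd2l ran from 0.221 to 0.947 when 1 library was left out. It was 0.947 without NW replicate 1, where the adjusted permutation p over the 4 groups was 0.0134.

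Changes near 0 turned their sign. Total-count scaling, which put the median of all genes at -0.11 for 3 d against NW and -0.19 for 3 d against 16 h (0.00 and -0.02 with TMM), gave for 1.5 d against 16 h -0.0662 for Psat1, -0.0133 for Psph and -0.065 for Shmt2, and for 3 d against 16 h -0.11 for Mthfd1l. For 1.5 d against 16 h Psat1 and Shmt2 were -0.0105 and -0.0107 with a filter of 1 CPM, -0.00588 and -0.022 with limma-voom and -0.0111 and -0.00697 with the replicate block. With the keratinocyte covariate Shmt2 was -0.0109 there, Mthfd1 -0.011 at 3 d against NW, and Psph 0.18 and Mthfd1l -0.0629 at 3 d against 16 h. Leave-one-out values that changed sign ran from -0.0599 to 0.644 for Psph at 3 d against NW. For 1.5 d against 16 h they ran from -0.0949 to 0.142 for Psat1, -0.18 to 0.20 for Psph and -0.12 to 0.20 for Shmt2. For 3 d against 16 h they ran from -0.414 to 0.0626 for Psat1, -0.47 to 0.12 for Psph and -0.0705 to 0.258 for Mthfd1l. For 3 d against 1.5 d they ran from -0.058 to 0.29 for Phgdh, -0.426 to 0.0746 for Psat1, -0.55 to 0.12 for Psph, -0.277 to 0.0423 for Shmt2 and -0.221 to 0.0667 for Mthfd2.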
